A study of Mus musculus with 18 samples.

Results

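Osr1 and Osr2 encode odd-skipped related zinc finger transcription factors, and Emx2 encodes a homeodomain transcription factor. In the mouse, Osr1 and Osr2 act together where the joints of the limb form and are active in connective tissue precursors, while Emx2 is needed for the shoulder blade and also patterns the cerebral cortex and the urogenital tract. The girdles tie the limbs to the trunk and differ in shape between shoulder and pelvis. The 3 genes were chosen by name out of 21883 protein-coding genes, with earlier results of these data known. Their binding sites were taken from chromatin immunoprecipitation followed by sequencing (ChIP-seq) of the hindlimb factor Pitx1 and the forelimb factor Tbx5. A gene's window is the gene itself with the 200 kb on either side. The windows held 65 of 54941 Pitx1 summits and 11 of 10273 Tbx5 summits.

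Both maps came from wild-type CD1 embryos, an outbred strain, with Pitx1 pulled down from hindlimbs at e11.5 and Tbx5 from forelimbs at e10.5. Pitx1 is a homeodomain protein made in the hindlimb and Tbx5 is a T-box protein made in the forelimb. ChIP-seq recovers the DNA that a protein is attached to, and a summit is the highest point of a called peak. The score of a summit is the authors' −log10 of the q-value, which ranks summits within a list and does not compare the lists. Each factor was mapped in 1 sample with no replicate, so the values below have no replicate error and no test was made between conditions. The lists differ at once in factor, antibody, limb and stage, which cannot be told apart. Whole limbs were used, so binding in fewer cells and weaker binding per cell cannot be told apart either. The lists hold positions and scores, not transcripts, and the labelled tissues were not checked against marker genes. Intervals on counts are exact Poisson and those on shares exact Clopper-Pearson, both at 95%, and cover only the counting of summits in a list.

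Pitx1 summits were found around all 3 genes, at about 2 times the density of an average gene or more. The Emx2 window held 25 Pitx1 summits (interval 16.2 to 36.9), and the Osr1 and Osr2 windows held 20 each (12.2 to 30.9). An average protein-coding gene had 10.8 in its window and the median gene 9. Per Mb of window, Emx2 had 61.5 Pitx1 summits, Osr1 49.1 and Osr2 49.1, against a mean of 24.1 over all genes. The ratios to that mean were 2.55 for Emx2 (1.65 to 3.77), 2.04 for Osr1 (1.25 to 3.15) and 2.04 for Osr2 (1.24 to 3.15). The intervals of the 3 genes overlap, so their order is not fixed by these counts. Having a Pitx1 summit somewhere in the window was common, at 90.6% of all genes, and a density of at least 2 times the mean was reached by 10.1%. As many or more Pitx1 summits per Mb were found at 4.17% of genes for Emx2, 9.46% for Osr1 and 9.49% for Osr2.

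Tbx5 summits were frequent around Emx2 and near the average around Osr1 and Osr2. The Emx2 window held 7 Tbx5 summits (2.81 to 14.4), and the Osr1 and Osr2 windows held 2 each (0.242 to 7.22), where an average gene had 1.70. Per Mb, this was 17.2 for Emx2, 4.91 for Osr1 and 4.91 for Osr2, against a mean of 3.73. The ratio to the mean was 4.61 for Emx2 (1.85 to 9.50) and 1.32 for each Osr gene (0.159 to 4.76 for Osr1). Of all genes, 65.5% had at least 1 Tbx5 summit in the window and 13.4% reached 2 times the mean density. A density as high as that of Emx2 was found at 1.63% of genes. Osr1 was equalled or passed by 27.9% of genes and Osr2 by 27.9%. The intervals of Emx2 and the Osr genes overlap for Tbx5 as well. With 100 kb on either side the Tbx5 ratio was 2.62 at Osr2 (0.317 to 9.45), from the same 2 summits, and 0 at Osr1.

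**Figure D1:**
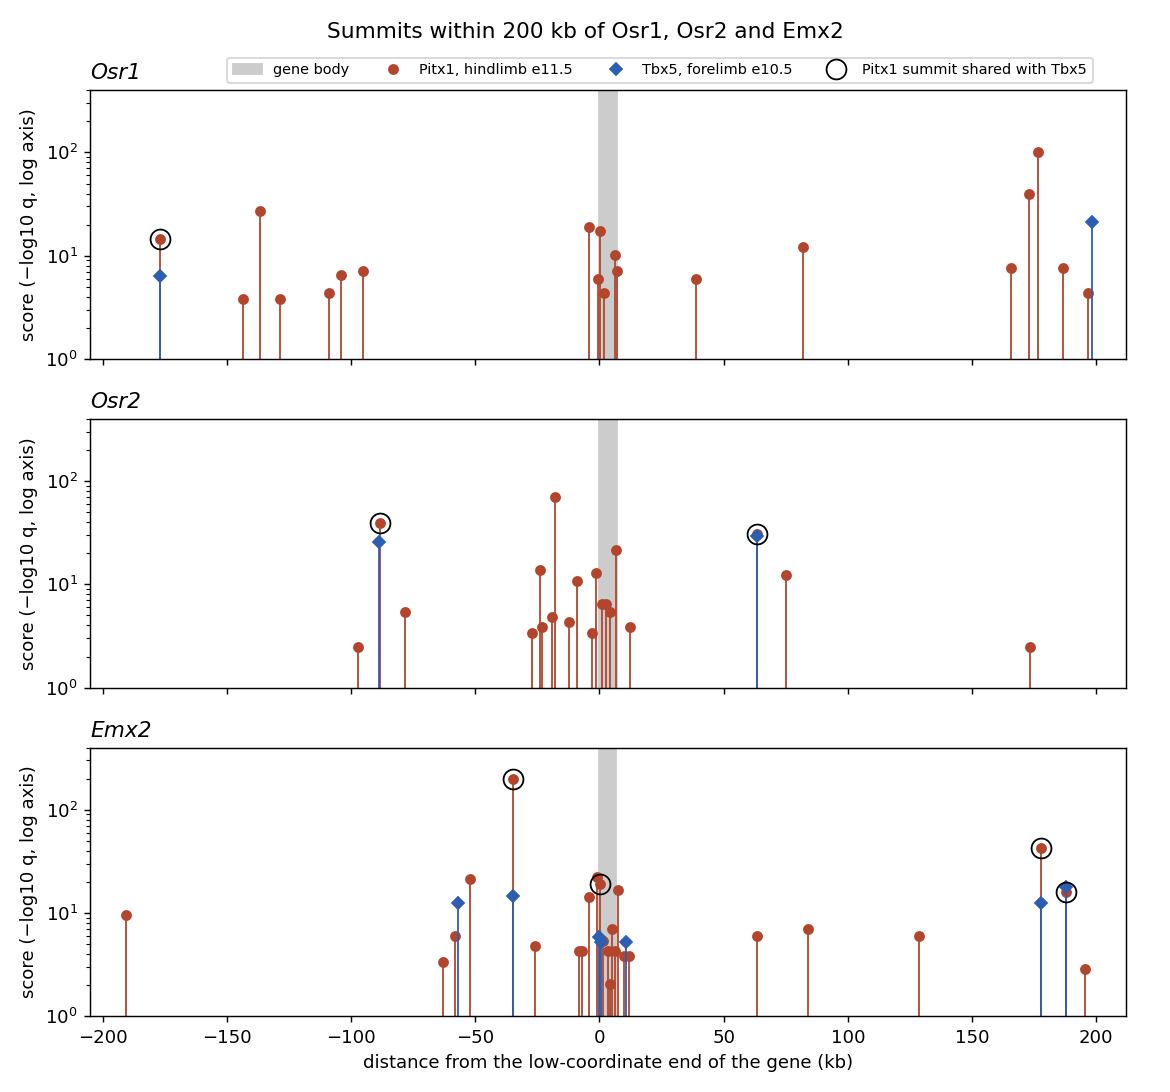
Every summit in the windows of Osr1, Osr2 and Emx2, by distance from the low-coordinate end of the gene in kb (x axis) and score, the −log10 of q, on a log axis (y axis). Circles are Pitx1 in hindlimbs at e11.5, diamonds Tbx5 in forelimbs at e10.5, rings mark Pitx1 summits within 200 bp of a Tbx5 summit, and the grey band is the gene. Pitx1 summits gather at each gene, while among the 3 genes only Emx2 has Tbx5 summits inside or within 10 kb.

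Emx2 had a Tbx5 summit in its promoter and a Pitx1 summit just behind its start. The gene lies at chromosome 19, 59458690 to 59465357 in build mm10. The Tbx5 summit was at position 59458618, 72 bp before the start of the gene, with a score of 5.81, inside the antisense RNA gene Emx2os near its high-coordinate end. It ranked 6620 of 10273 Tbx5 summits, below the median score of that list, 8.29. The Pitx1 summit was at position 59458798, 108 bp behind the start and inside the gene, with a score of 18.9. They lie 180 bp apart and count as shared. The promoter is shown because a Tbx5 summit lay in it and a Pitx1 summit within 200 bp of it. It is taken from RefSeq on GRCm38.p6, the assembly that mm10 represents, and covers chr19:59458440-59458739 on the plus strand, 250 bases before to 50 after the start. The capitals mark the 21 bases centred on the Tbx5 summit.

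Emx2 promoter: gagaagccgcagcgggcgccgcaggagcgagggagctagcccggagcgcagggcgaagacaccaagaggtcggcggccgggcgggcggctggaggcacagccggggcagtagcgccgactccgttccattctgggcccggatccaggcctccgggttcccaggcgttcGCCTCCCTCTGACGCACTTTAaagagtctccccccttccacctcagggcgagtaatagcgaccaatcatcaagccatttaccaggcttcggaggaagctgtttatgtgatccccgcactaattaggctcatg

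These 300 bases are 64.3% G or C, against a median of 56.3% over 21262 promoters of 17491 protein-coding genes. The letters TAATCC, bound by homeodomain proteins of the Pitx type, do not occur in it on either strand, and they occur in 6.42% of the promoters. AGGTGT, the core of the T-box motif, does not occur on either strand either and is found in 12.7% of promoters. TAATTA, a homeodomain core searched after the sequence was read, begins at base 287 and is found in 4.53% of promoters. It reads the same on both strands and overlaps neither of the other motifs. The Pitx1 summit lies 59 bp past the last base shown. Of the 21262 promoters, 1.48% held a Tbx5 summit and 11.7% a Pitx1 summit, and 1.15% had summits of both factors inside or within 200 bp. Osr1 and Osr2 are named here without a sequence.

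The site with the highest Pitx1 score of the 3 windows was shared by both factors and lay upstream of Emx2. Its Pitx1 summit, at chromosome 19 position 59423943, scored 197 and ranked 317 in the Pitx1 list. A Tbx5 summit with a score of 14.7 lay 6 bp away at position 59423937. The site is 34.7 kb outside Emx2 and 1161 bp outside Emx2os, the antisense RNA gene beside Emx2, which spans 59425104 to 59458635. A top Pitx1 score this high in the window was reached by 4.65% of genes. The top Tbx5 score in the Emx2 window, 17.8, was reached by 28.1%.

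A pair of shared sites lay far on the other side of Emx2. At position 59636463, 171 kb from the gene, a Pitx1 summit of score 42.2 had a Tbx5 summit of score 12.4 at a distance of 28 bp. At position 59646723, 181 kb from the gene, a Pitx1 summit of score 15.8 had a Tbx5 summit of score 17.8, the highest Tbx5 score of the window, at 16 bp. Emx2 is the nearest protein-coding gene of both, since the next on that side, Rab11fip2, begins 428 kb beyond Emx2. Both sites lie outside any noncoding gene of the table.

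The other 3 Tbx5 summits at Emx2 had a Pitx1 summit nearby but not within 200 bp. The summit inside the gene at 59459307 scored 5.23 and lay 509 bp from the nearest Pitx1 summit. The summit 3.95 kb past the gene at 59469303 also scored 5.23, with a Pitx1 summit 650 bp away. The summit at 59401810, 56.9 kb before the gene, scored 12.4 and lay 1448 bp from a Pitx1 summit. Pdzd8, which encodes a protein of contacts between membranes, is slightly nearer to it at 56.0 kb.

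Pitx1 summits, most of them of low score, formed a dense run over the body of Emx2. Between 59450304 and 59470483, a stretch of 20.2 kb, 13 Pitx1 summits followed each other with gaps of at most 5 kb. The Pitx1 list had 39874 such runs, with each lone summit counted as a run. Of these, 23 had 13 summits or more, and they held 0.808% of all Pitx1 summits. With gaps of at most 10 kb the run was the same, and 65 of 33450 runs had 13 or more, holding 2.22%. The median score of the 13 was 4.32, below the 7.07 of the whole list, 7 scored below 5, and 2 were in the authors' second, shorter Pitx1 list. The highest score of the run was 22.2 at position 59457541, 1.15 kb before the gene and inside Emx2os. It was followed by 18.9 at the start of Emx2, 16.6 at 59466204 and 14.4 at 59454427. Inside the 6668 bp of the gene lay 6 Pitx1 summits, with scores from 2.03 to 18.9. Another 5 lay inside Emx2os, and among them the summit at 59432693, with a score of 4.84, lies before the run. Outside the run, a summit at 59406515, 52.2 kb before the gene, scored 21.3. Slc18a2, which encodes the vesicle transporter of monoamines, held the most distant Pitx1 summit of the window, with a score of 9.54 at 191 kb from Emx2.

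Osr1 had Pitx1 summits at the gene and others far from it on both sides. Osr1 lies at chromosome 12, 9574442 to 9581500, and no other protein-coding gene overlaps its window. Its nearest protein-coding neighbours are Ttc32, 538 kb below, and Nt5c1b, 788 kb above. Around the gene itself, 6 Pitx1 summits lay between 9570116 and 9581634, of which 3 were inside the gene. Their scores were 18.9 at 4.33 kb before the low-coordinate end, 5.92 at 0.488 kb before it, 17.4, 4.32 and 10.2 inside, and 7.07 at 0.134 kb past the gene. The first of them lies inside the noncoding gene 1700022H16Rik. The 6 form a run with gaps of at most 5 kb. Runs of 6 or more held 4.66% of all Pitx1 summits, and 11.4% with gaps of at most 10 kb.

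The highest scores of the Osr1 window were not at the gene. The Pitx1 summit at 9750873, 169 kb above Osr1, scored 101 and ranked 1214 in the list. The summit at 9747573, 166 kb above, scored 39.3, and the summit at 9437585, 137 kb below, scored 27.3. In all, 11 of the 20 Pitx1 summits lay 100 to 200 kb from the gene. A top Pitx1 score of 101 or more was found in the windows of 15.2% of genes. None of the 3 highest lies inside a noncoding gene of the table, and Osr1 is the nearest protein-coding gene of each.

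Tbx5 summits at Osr1 were found only near the edges of the window. The summit at 9772822, 191 kb above the gene, scored 21.1, and the nearest Pitx1 summit lay 1604 bp away with a score of 4.32. The summit at 9397558, 177 kb below and inside the noncoding gene Gm46323, scored 6.40 and was shared with a Pitx1 summit of score 14.4 at 44 bp. No Tbx5 summit was listed within 100 kb of Osr1. A top Tbx5 score of 21.1 or more was found in the windows of 25.2% of genes. Peaks are numbered in genome order in the authors' lists, and numbers are missing. Between the first and the last Pitx1 summit of the Osr1 window 5 numbers were absent, and between its Tbx5 summits 1 was absent. For Osr2 1 Pitx1 number was absent, and for Emx2 none of either factor. Of all numbers, 77.8% are present for Pitx1 and 60.4% for Tbx5.

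Osr2 had its Pitx1 summits close by and mostly on its low-coordinate side. Osr2 lies at chromosome 15, 35296098 to 35303305. Of its 20 Pitx1 summits, 12 lay below the gene, 4 inside and 4 above. Within 100 kb lay 19 of the 20, against 20 of 25 for Emx2 and 9 of 20 for Osr1. The highest, at 35278361, lay 17.7 kb below the gene and ranked 2160. Its score was 70.8, and 24.0% of genes had a top Pitx1 score this high. The next near the gene were 21.3 inside it at 35302558, 13.6 at 35272264, 23.8 kb below, and 12.9 at 35294652, 1.45 kb below. Of the 12 on the low side, 11 fall inside the noncoding gene Gm52178, which spans 35205698 to 35296034 and ends 64 bp from Osr2. With gaps of at most 10 kb, 14 Pitx1 summits formed a run of 39.4 kb from 35268977 to 35308361. Of 33450 such runs, lone summits included, 50 had 14 or more, and they held 1.86% of all Pitx1 summits. With gaps of at most 5 kb the longest run at Osr2 had 6, and runs of 6 or more held 4.66% of all Pitx1 summits.

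Both Tbx5 summits at Osr2 were shared with Pitx1, and both lay away from the gene. At 35359579, 56.3 kb above Osr2, a Tbx5 summit of score 29.1 had a Pitx1 summit of score 30.8 at a distance of 25 bp. At 35207450, 88.6 kb below, a Tbx5 summit of score 25.5 had a Pitx1 summit of score 39.3 at 105 bp. The first is nearest to Vps13b, a gene for a lipid transport protein, which begins 11.54 kb from it. The second is 51.6 kb from Stk3, which encodes a kinase of the Hippo pathway. A top Tbx5 score of 29.1 or more was found in the windows of 19.5% of genes. By the nearest protein-coding gene, Osr2 would be given 14 of the 20 Pitx1 summits and neither of the Tbx5 summits. Stk3 and Vps13b would receive 3 Pitx1 summits and 1 Tbx5 summit each. At Emx2, the nearest-gene rule left 22 of 25 Pitx1 and 6 of 7 Tbx5 summits.

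The density of Pitx1 summits was highest inside and next to all 3 genes. Within the gene and 10 kb on either side lay 13 Pitx1 summits at Emx2, 8 at Osr2 and 6 at Osr1, where the mean over all genes was 1.97. As many or more were found at 2.30% of genes for Emx2, 4.79% for Osr2 and 7.32% for Osr1. Inside the gene, Emx2 had 6, Osr2 4 and Osr1 3, while 38.7% of all genes had any. All 3 genes are about 7 kb long. Among 2891 genes of 5 to 10 kb, a comparison chosen after the values were seen, the mean was 0.341 and 25.5% had any. In that set 0.138% had 6 or more, 0.761% had 4 or more and 1.94% had 3 or more. These counts have no score limit. Of the 6 inside Emx2, with scores from 2.03 to 18.9, none was in the second Pitx1 list. Inside Osr1 only the summit at 9574484 was in that list, and inside Osr2 only the summit at 35302558. The gene and 10 kb on either side held 3 Tbx5 summits at Emx2 and none at Osr1 or Osr2. The scores of the 3 ran from 5.23 to 5.81, below the Tbx5 list median of 8.29. Inside the genes only Emx2 had a Tbx5 summit, as did 11.7% of all genes and 3.18% of those of 5 to 10 kb.

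Farther out the genes diverged. From 10 to 50 kb, Osr2 had 75 Pitx1 summits per Mb, Emx2 25 and Osr1 12.5, against 23.2 over all genes. From 100 to 200 kb the order turned, with 55 for Osr1, 25 for Emx2 and 5 for Osr2, against 23.5. These densities rest on 6, 2 and 1 summits in the nearer zone and on 11, 5 and 1 in the farther zone.

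**Figure D2:**
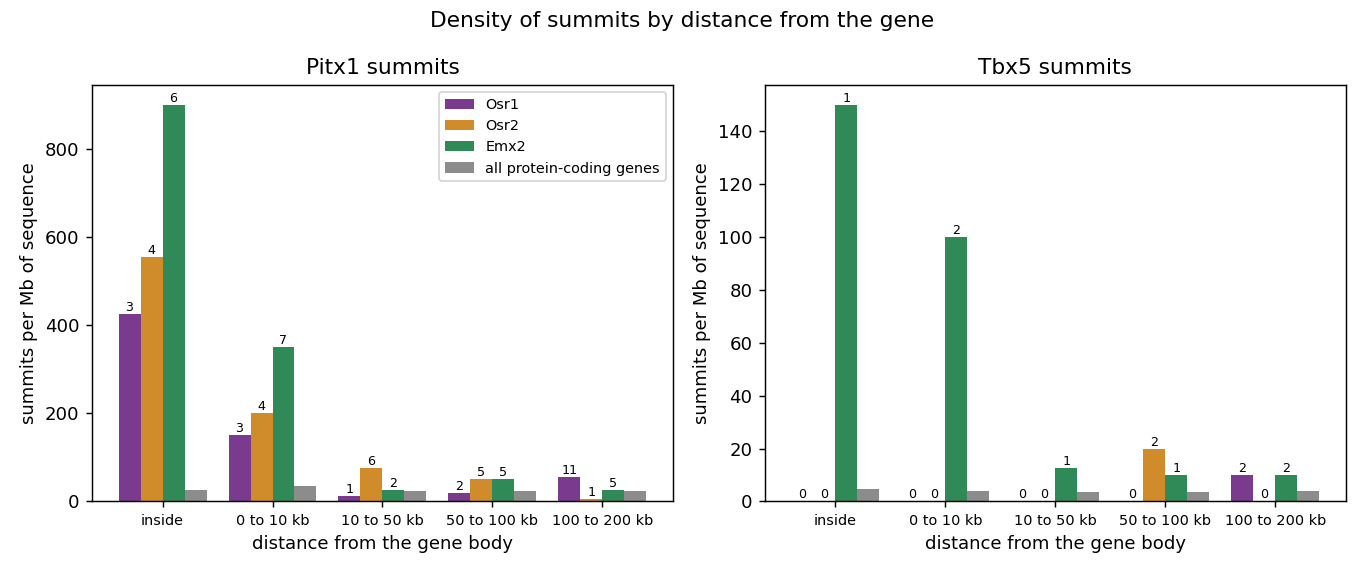
Summits per Mb of sequence (y axis) inside the gene and in 4 zones of distance from it (x axis), for Pitx1 on the left and Tbx5 on the right. Bars are Osr1, Osr2, Emx2 and the total over all protein-coding genes, numbers over the bars count the summits, and the y axes differ. Inside the gene the Pitx1 density is 900 per Mb at Emx2, 555 at Osr2 and 425 at Osr1, against 26.6 over all genes.

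Most Tbx5 summits of the 3 windows lay at or close to a Pitx1 summit. Within 200 bp of a Pitx1 summit were 7 of 11, or 63.6% (30.8 to 89.1), namely 4 at Emx2, 2 at Osr2 and 1 at Osr1. In the whole Tbx5 list the share was 39.5%, which is inside that interval. A shared site was present in the windows of 35.8% of all genes. The distances of the 7 shared pairs were 6, 16, 25, 28, 44, 105 and 180 bp. All 11 lay within 1604 bp of a Pitx1 summit, with a median of 105 bp against 540 bp in the whole list. Within 2 kb, a limit chosen after the values were seen, were 11 of 11 (71.5 to 100%) at the 3 genes and 59.8% of the whole list. Windows rich in Pitx1 summits also offer more of them to lie near, and the part of this density in the distances was not tested. The same 7 sites make up 10.8% of the 65 Pitx1 summits (4.44 to 20.9), against 7.39% in the whole list.

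**Figure D3:**
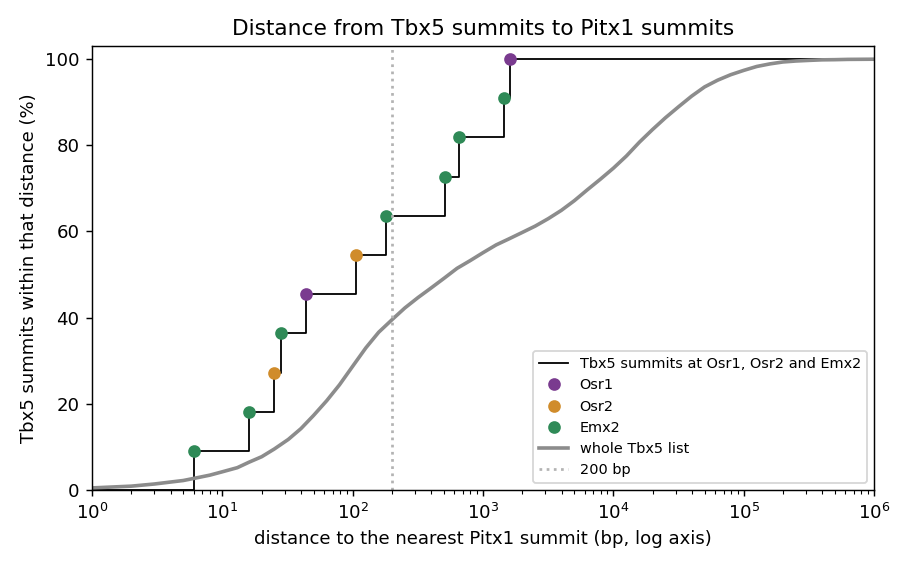
Share of Tbx5 summits (y axis, percent) within a given distance of a Pitx1 summit (x axis, bp, log axis). The stepped line with points in 3 colours is the 11 summits at Osr1, Osr2 and Emx2, the grey line is the whole Tbx5 list, and the dotted line marks 200 bp. The stepped line reaches 100% at 1604 bp, where the whole list is below 60%.

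The shared Pitx1 summits were among the higher-scoring of the 3 windows. Their scores ran from 14.4 to 197 with a median of 30.8, and the 58 others ran from 2.03 to 101 with a median of 5.92. In the whole list the medians were 17.4 for shared and 6.49 for other Pitx1 summits. The 2 next highest Pitx1 scores after that of Emx2, namely 101 at Osr1 and 70.8 at Osr2, had no Tbx5 summit within 20 kb. The nearest lay 21949 bp from the Osr1 site and 70911 bp from the Osr2 site.

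Pitx1 summits at these genes were about as weak as those of the whole list. The median score of the 65 was 6.49, close to the 7.07 of the whole list, and 35.4% scored below 5, against 36.8% of the whole list. The second Pitx1 list of the authors, a subset of 17783 summits, held 16 of the 65, or 24.6% (14.8 to 36.9), against 32.4% of the longer list. It held 6 of 20 at Osr1, 4 of 20 at Osr2 and 6 of 25 at Emx2. Membership depends on the score: of 10 equal classes of the longer list by score, the bottom class had 5.10% of its summits in the second list and the top class 93.5%. Summits in the same score classes as the 65 were in the second list in 31.6% of cases, which is inside the interval. The strongest Pitx1 summit of each window was in the second list. Of the 7 shared sites 4 were, and the exceptions were the Emx2 promoter site, the Osr1 site at 9397602 and the Osr2 site at 35207555. The last had a score of 39.3, in the top class.

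More summits of both factors were counted at Emx2 than at Emx1, its paralog, which also acts in the cortex. The Emx2 window had 61.5 Pitx1 summits per Mb (39.8 to 90.8) and the Emx1 window 21.6 (9.88 to 41.0), from 9 summits. For Tbx5 the densities were 17.2 (6.92 to 35.5) at Emx2 and 4.80 (0.581 to 17.3) at Emx1. The intervals overlap for both factors. The Emx1 gene, at chromosome 6, 85187931 to 85204463, held 3 Pitx1 summits with scores from 4.32 to 7.67 and no Tbx5 summit. Both of the Tbx5 summits in its window lay inside Exoc6b, at least 163 kb from Emx1.

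Genes known from the same tissues covered a wide range of densities, and the 3 genes fell inside it. The girdle and connective tissue lists were chosen with earlier results of these data known. Their values beside those of all genes are a description and not independent of these data. Of 16 girdle genes, all had Pitx1 and Tbx5 summits in the window and 15 had a shared site, against 90.6%, 65.5% and 35.8% of all genes. Of the 16, 10 reached 2 times the mean density for each factor, against 10.1% of all genes for Pitx1 and 13.4% for Tbx5. Their median was 58.9 Pitx1 and 11.1 Tbx5 summits per Mb, against gene medians of 21.1 and 2.44 over all genes. Hoxa5 (206 Pitx1 summits per Mb), Hoxc6 (205) and Prrx1 (113), which pattern the trunk and limb mesenchyme, were highest, and Alx1 (23.7) and Pbx2 (24.7) lowest. For Tbx5, Hoxa5 (42.2), Prrx1 (38.3) and Tbx18 (23.3), the last a T-box gene of the shoulder blade, were highest. Emx2, with 61.5 and 17.2, lay above both medians of the list. The windows of the Hox genes cover their whole clusters.

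Of 12 genes of limb connective tissue, all had Pitx1 summits, 9 had Tbx5 summits and 6 had a shared site, against 90.6%, 65.5% and 35.8% of all genes. Their medians were 42.1 Pitx1 and 5.84 Tbx5 summits per Mb, against 21.1 and 2.44 over all genes. A density of at least 2 times the mean was reached by 4 of the 12 for each factor, against 10.1% of all genes for Pitx1 and 13.4% for Tbx5. Tcf7l2 (110 Pitx1 summits per Mb), a marker of muscle connective tissue, Six2 (87.0) and Twist2 (58.2) were highest. Klf4 (14.8) and Klf2 (14.9), which encode zinc finger factors, were lowest and had no Tbx5 summit. For Tbx5, Tcf7l2 (33.8), Twist2 (13.4) and Egr1 (9.91) were highest. Osr1 and Osr2, with 49.1 each for Pitx1 and 4.91 each for Tbx5, lay above the Pitx1 median and below the Tbx5 median.

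**Figure D4:**
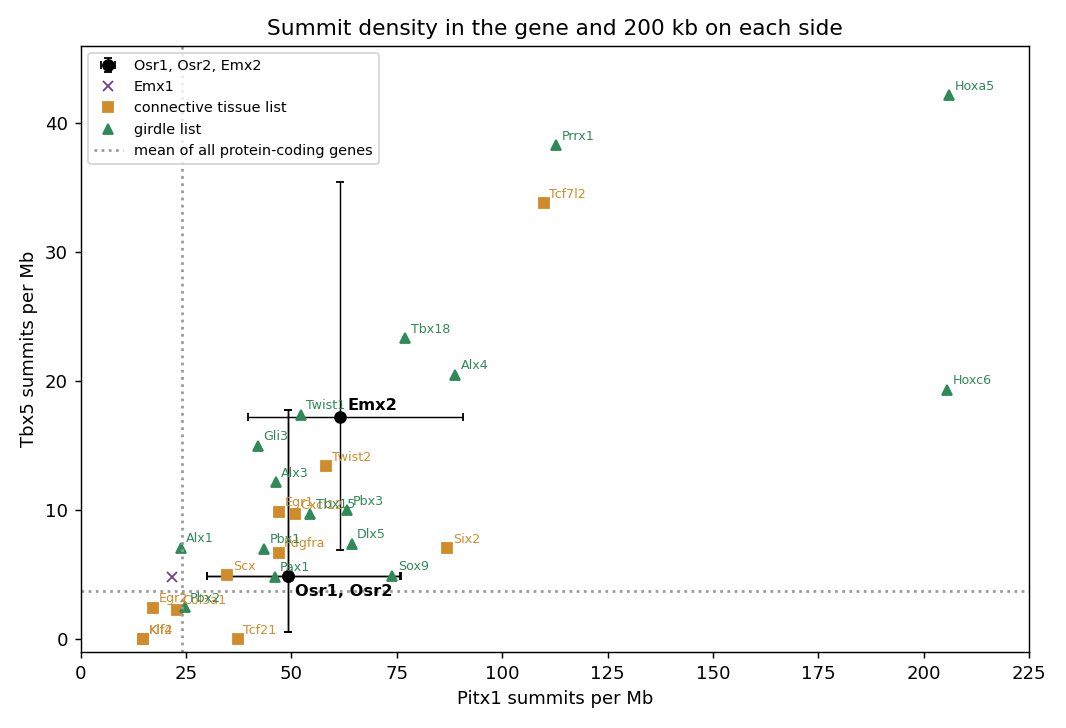
Pitx1 (x axis) against Tbx5 (y axis) summits per Mb in the gene and the 200 kb on either side. Black points are Osr1, Osr2 and Emx2 with exact Poisson intervals, the cross is Emx1, squares are connective tissue genes, triangles girdle genes, and dotted lines the means of all protein-coding genes. The 3 genes lie to the right of the Pitx1 mean of 24.1, and Emx2 lies at 17.2 for Tbx5.

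Other genes with a similar pattern were looked for by 4 percentile ranks across all protein-coding genes, namely the densities and the top scores of both factors. The 3 nearest to Osr1 were Prickle4, Cyp2d26 and Foxd3, with 22, 20 and 20 Pitx1 summits and 2 Tbx5 summits each. The 3 nearest to Osr2 were Gpx7, Pfdn5 and Rnf139, with 19, 22 and 20 Pitx1 summits and 2 Tbx5 summits each. The 3 nearest to Emx2 were Gm19774 with 24 Pitx1 and 7 Tbx5 summits, 0610009B22Rik with 23 and 5, and Il9 with 26 and 5. Their Euclidean distances ran from 2.87 to 4.98 percentile points. Likeness over 2 samples is a description of these counts.

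Summits near the window's edge covered a range of scores on both sides of it. The most distant Pitx1 summit inside the window of Osr1 lay 190 kb from the gene with a score of 4.32, and the first outside lay 203 kb below with 9.54. At Osr2 the most distant inside lay 166 kb away (score 2.45) and the first outside 211 kb above (23.0). At Emx2 they lay 191 kb (9.54) and 205 kb (3.83) away. For Tbx5 the most distant inside lay 191 kb from Osr1 (21.1), 88.6 kb from Osr2 (25.5) and 181 kb from Emx2 (17.8), and the first outside lay 221 kb from Osr1 (5.23), 213 kb from Osr2 (6.40) and 226 kb from Emx2 (5.23).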

How the data were processed

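ChIP-seq was done on formaldehyde-fixed limb tissue of CD1 mouse embryos. Of 18 samples, the Pitx1 and Tbx5 samples were used, and the other 16 are not analysed here. The submitters' processing notes name build mm10 and, in no stated role, MACS2 2.1.1.20160309, HOMER, Bowtie2 2.2.6 and Bowtie 1.1.2. The authors' score column was taken for the −log10 q-value that MACS2 writes. A further score in the deposited second Pitx1 list is unexplained and was not used. Which control library was used and whether reads were pooled is not given in these sources, and depth is unknown, so its precision cannot be stated.

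The RefSeq table (GRCm38.p6) gives no strand or exons, so exonic and intronic positions are not given. Summits were counted per gene window with Python 3.11.15, pandas 2.3.3 and SciPy 1.17.1, and were called shared within 200 bp. Counting was tested on simulated lists. Named besides the 3 genes were Emx1, window neighbours, the strongest and shared sites, the extremes of each list, and most similar genes over 1 Mb from the 3 genes. A further gene of the connective tissue list is not reported here, and the list's counts and medians leave it out. Alternatives changed the window, gene assignment, score threshold, shared distance and Pitx1 list. Members and lists were chosen with earlier results of these data known.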

Additional observations from a re-analysis of the deposited data

How the results depend on the processing

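Narrowing the window raised the ratio to the mean of all genes where summits lie close to the gene. The Pitx1 ratio at Osr2 was 3.72 with 100 kb on either side, 5.06 with 50 kb and 4.33 with summits nearest to Osr2, against 2.04 in the report. At Emx2 the Pitx1 ratio was 3.93 with 100 kb and 5.45 with 50 kb, and the Tbx5 ratio 10.2 with 50 kb. The Tbx5 ratio fell to 0 at Osr1 with 100 kb and with 50 kb, and to 0 at Osr2 with 50 kb and with summits nearest to Osr2. It was 2.62 at Osr2 with 100 kb and 2.75 with scores at or above the median, against 1.32 in the report. Where it was 0 no Tbx5 summit was left, so no top Tbx5 score was given for Osr2 under the nearest-gene rule. At Osr1 the Pitx1 ratio stayed between 1.70 and 2.53 over all 5 alternatives, and its interval with 100 kb (0.807 to 3.35) includes 1. The Pitx1 intervals of all 3 genes include 1 when the second Pitx1 list is used. They were 0.826 to 4.9 at Osr1, 0.409 to 3.84 at Osr2 and 0.827 to 4.9 at Emx2. The ratio in that list was 2.25 at Osr1 and at Emx2, and lower at Osr2. The 100% of Tbx5 summits with Pitx1 within 2 kb comes from a limit added after the data were examined. Within 100 bp were 45.5% (16.7 to 76.6), against 28.8% of the whole list. With the second Pitx1 list the shared share was 36.4% (10.9 to 69.2). The whole-list share of 39.5% uses the longer Pitx1 list and is not comparable with it, and none is given for the second list. Of the shared Pitx1 summits, 57.1% at the 3 genes (18.4 to 90.1) and 58.6% of the whole list were in the second list. Among Pitx1 summits at or above the median score, 48.4% (30.2 to 66.9) were in the second list, as membership rises with score. In the whole list, the equal score classes from the median up had 23.4%, 33.5%, 50.3%, 72.3% and 93.5% in it. With low scores left out, the Pitx1 ratios were 2.52 at Osr1, 1.68 at Osr2 and 2.32 at Emx2. Of these, only the interval at Osr2 (0.726 to 3.32) includes 1. No paired analysis was possible because each factor has 1 sample. The Tbx5 results at Osr1 and Osr2 rest on 2 summits each, and depth is unknown.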
